A study of Homo sapiens with 4 samples.

Results

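AGS-1 and HGC-27 are cell lines from human gastric cancer (GC), and the labels give AGS-1 as cells of a gastric adenocarcinoma and HGC-27 as cells of a gastric carcinoma. The results below compare the lines with each other, gene by gene, and keep what held both without and with isorhamnetin (ISO), a plant flavonol. The comparison took all 4 libraries of the series and all 2897 genes of its table. Each line has 1 library untreated (control) and 1 after ISO at 50 μM for 24 h per the labels, where the text of the study gives a lower dose for the same libraries. Both lines carried the genotype label WT and grew in RPMI-1640 with serum, and the labels name no other difference between the groups than line and ISO; culture day, passage and sequencing run are not given. A difference between the lines is written as AGS-1 minus HGC-27 on the scale log2(FPKM + 1), where FPKM is fragments per kilobase of gene scaled to the depth of the library and the added 1 shrinks the differences of low genes.

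Epithelial cells adhere through tight junctions, adherens junctions and desmosomes, are braced inside by keratin filaments, and rest on a basement membrane of laminin through integrins. Mesenchymal cells build their filaments from vimentin, make fibrillar collagens and other loose matrix, and carry few epithelial junctions. Gastric carcinomas range from cohesive, gland-forming tumours to undifferentiated ones with little adhesion, and transcription factors such as TWIST1 can turn epithelial programmes off and mesenchymal ones on.

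Values are given per library throughout, the control library before the ISO library of each line. The 4 libraries held between 15235005 and 20199425 fragments by the steps in the FPKM values, and the listed genes took 78.5% of the AGS-1 control library against 59.96% to 64.4% of the others, which sets that library apart. The libraries of a line are an untreated and a treated one, so the p-values hold no spread over independent cultures. They set each difference against its variance over the 2 treatment pairs, and that variance is drawn mostly from other genes. Each gene has 1 residual degree of freedom of its own, against a prior of 11.5. An exact permutation test of 2 libraries against 2 cannot go below 0.333. In bulk RNA, fewer cells of a type and less RNA per cell cannot be told apart.

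The lines differed widely. Of 2883 genes tested with limma, 1639 passed an adjusted p of 0.05 (56.9%), of which 928 (32.2%) were higher in AGS-1 and 711 (24.7%) were higher in HGC-27. The shares of 32.2% and 24.7% are the background for the counts on the gene lists below. Under upper-quartile scaling the split turned to 789 higher in AGS-1 and 1064 higher in HGC-27, and the median difference of all genes moved from 0.05 to -0.17, so small differences depend on how the libraries are scaled. Without the HGC-27 control library 607 genes were called, without the HGC-27 ISO library 647, and without the AGS-1 control library 1082, of which 554 were higher in AGS-1.

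Large differences were fewer. A difference of at least 2-fold in the same direction in both the control pair and the ISO pair was found for 473 genes higher in AGS-1 (16.4% of those tested) and for 288 genes higher in HGC-27 (9.99%). In contrast, 1709 genes (59.3%) lay within 2-fold in both pairs. At the far end were genes used by a single line: 20 genes (0.694%) had at least 10 FPKM in both AGS-1 libraries and at most 3 fragments in each HGC-27 library, and 33 genes (1.14%) had the opposite pattern. The plot of the difference without and with ISO shows these groups along the diagonal.

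**Figure D1:**
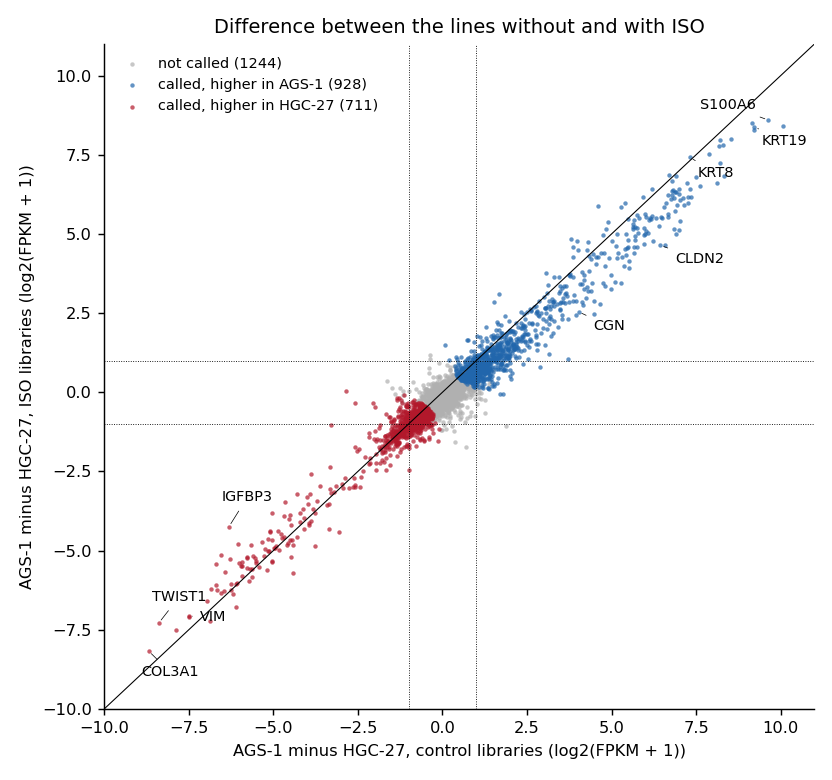
Each point is 1 of the 2883 genes tested, with its difference between the lines (AGS-1 minus HGC-27, log2(FPKM + 1)) in the control libraries on the x axis and in the ISO libraries on the y axis; dotted lines mark 2-fold, the solid line equality, and colours the limma call over both pairs. Genes far from 0 lie in the same quadrant on both axes, with the epithelial markers KRT19 and KRT8 at the upper right and VIM, TWIST1 and COL3A1 at the lower left.

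Promoter letters are shown first for 6 genes that were high in only 1 line, picked by hand from the genes named here. Both AGS-1 genes shown are poor in CG dinucleotides and do not stand for their set. Of the windows of genes at least 16-fold higher in AGS-1, 33.0% held fewer than 10 CG, and the median was 21. The counts for each set are given further on. Each run is the 150 bases before the RefSeq start (GRCh38.p14), read 5′ to 3′ on the gene's strand, with each CG in capitals. CLDN2 (a tight junction claudin) and CTSE (cathepsin E, a protease of gastric surface cells) belong to AGS-1. VIM (vimentin), BGN (biglycan), MAGEA3 (a cancer-testis antigen) and HOXA13 (a homeobox factor of the hindgut and limb) belong to HGC-27.
CLDN2: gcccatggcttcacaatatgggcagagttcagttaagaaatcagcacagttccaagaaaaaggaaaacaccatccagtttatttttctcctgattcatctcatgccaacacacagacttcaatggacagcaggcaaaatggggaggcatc
CTSE: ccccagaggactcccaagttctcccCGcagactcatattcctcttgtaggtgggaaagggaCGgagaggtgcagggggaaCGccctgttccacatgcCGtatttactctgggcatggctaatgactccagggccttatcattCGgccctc
VIM: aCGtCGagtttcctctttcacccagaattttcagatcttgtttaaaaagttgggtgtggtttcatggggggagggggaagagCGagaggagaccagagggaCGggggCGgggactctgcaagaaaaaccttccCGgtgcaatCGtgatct
BGN: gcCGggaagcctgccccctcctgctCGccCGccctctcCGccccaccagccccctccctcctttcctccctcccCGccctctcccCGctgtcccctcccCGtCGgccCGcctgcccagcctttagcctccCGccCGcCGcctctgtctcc
MAGEA3: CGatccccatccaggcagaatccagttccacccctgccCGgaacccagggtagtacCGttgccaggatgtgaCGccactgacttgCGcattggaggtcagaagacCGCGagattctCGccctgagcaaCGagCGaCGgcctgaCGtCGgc
HOXA13: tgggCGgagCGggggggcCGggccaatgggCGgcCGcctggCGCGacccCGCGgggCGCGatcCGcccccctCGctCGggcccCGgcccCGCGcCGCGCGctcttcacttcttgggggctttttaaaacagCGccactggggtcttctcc
The CLDN2 run lies at chrX:106900014-106900163 on the + strand, the CTSE run at chr1:206023896-206024045 on the - strand, and the VIM run at chr10:17228091-17228240 on the + strand. BGN lies at chrX:153494830-153494979 and MAGEA3 at chrX:152698644-152698793, both on the + strand, and HOXA13 at chr7:27200092-27200241 on the - strand. All are upstream of the RefSeq first exon, except that the last 14 bases of the CTSE run and the last 27 of the MAGEA3 run fall inside the gene as the deposited table bounds it. Over the full window of 300 bases (250 before the start and 50 after it), CG occurred 1 time in CLDN2 and 7 times in CTSE. The count was 10 in VIM, 19 in BGN, 19 in MAGEA3 and 44 in HOXA13.

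The epithelial markers separated the lines without overlap. KRT19, a keratin of simple epithelia, read 598 and 332 FPKM in AGS-1 and 0 and 0 FPKM in HGC-27. KRT8 and KRT18 pair with each other into the first filaments of simple epithelia. KRT8 read 508 and 341 FPKM in AGS-1 and 2.19 and 0.996 FPKM in HGC-27. For KRT18 the values were 559 and 296 FPKM in AGS-1 and 0.919 and 0.363 FPKM in HGC-27. Both AGS-1 libraries were thus high and both HGC-27 libraries at or near 0 for all 3 keratins. KRT19 was at least 6698-fold higher in AGS-1, taking 3 fragments as the floor of each HGC-27 library, and the log2 differences of KRT8 and KRT18 were 7.37 and 7.98 (standard errors 0.19 and 0.19; limma, adjusted p = 7.23e-12 and 6.93e-12). Of the 6 keratins in the table, 5 were called, all higher in AGS-1, including the stress keratin KRT17 with 42.4 and 11.9 FPKM in AGS-1 and 2.76 and 1.60 FPKM in HGC-27. KRT7 was not called, at 4.02 and 0.533 FPKM in AGS-1 and 1.26 and 0.791 FPKM in HGC-27. The list median was 5.54 against 0.05 over all genes tested. The table holds part of each list, here 6 of 19 keratins, and 98.1% of its genes average at least 10 FPKM, so a gene near 0 in 1 line is listed only if it is high in the other. Such members had to differ, and the list counts describe the listed genes only.

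Junction genes lay on the same side. CLDN2, which forms cation pores in tight junctions, read 86 and 25.7 FPKM in AGS-1 and 0 and 0.0687 FPKM in HGC-27. CGN, the junction adaptor cingulin, read 87.4 and 31.4 FPKM in AGS-1 and 4.43 and 4.58 FPKM in HGC-27, and CLDN4, a sealing claudin, read 218 and 225 FPKM in AGS-1 and 0.927 and 1.72 FPKM in HGC-27. The AGS-1 libraries exceeded the HGC-27 libraries in each case, and CGN kept a low level in HGC-27 where the claudins were near 0. The table held 5 of 25 tight junction genes, and these were called higher in AGS-1 (median 5.54), with CLDN1 and LSR the others. Of 23 genes of adherens junctions, desmosomes and hemidesmosomes 13 were listed, and these were called higher in AGS-1 (median 4.80). EPCAM, the epithelial adhesion molecule, read 248 and 167 FPKM in AGS-1 and 0.387 and 0.506 FPKM in HGC-27. Within this list the size of the difference varied: JUP, the junction plakoglobin, had a difference of 6.30, DSP (desmoplakin) 4.33 and CTNNB1 (beta-catenin) 1.88, while CTNNA1 (alpha-catenin) and DSG2 (a desmosomal cadherin) differed least, at 0.62 and 0.61. CTNNA1 read 69.5 and 38.6 FPKM in AGS-1 and 36.7 and 30.2 FPKM in HGC-27.

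Of 24 epithelial regulators and membrane proteases 13 were listed, and these were called higher in AGS-1 (median 5.67). ELF3, an ETS factor of epithelia, read 62.5 and 55 FPKM in AGS-1 and 0.172 and 0.163 FPKM in HGC-27. The protease ST14 (matriptase) read 137 and 106 FPKM in AGS-1 and 0.253 and 0.0427 FPKM in HGC-27, and its inhibitor SPINT1 read 188 and 103 FPKM in AGS-1 and 0.252 and 0.0496 FPKM in HGC-27, so enzyme and inhibitor were both close to absent in HGC-27. RAB25 and MAL2, which direct apical transport, differed by 6.63 and 6.51. KLF5, a Krüppel-like factor of gut epithelium, kept the highest HGC-27 level of the list, with 26.6 and 11.8 FPKM there and 241 and 133 FPKM in AGS-1.

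**Figure D2:**
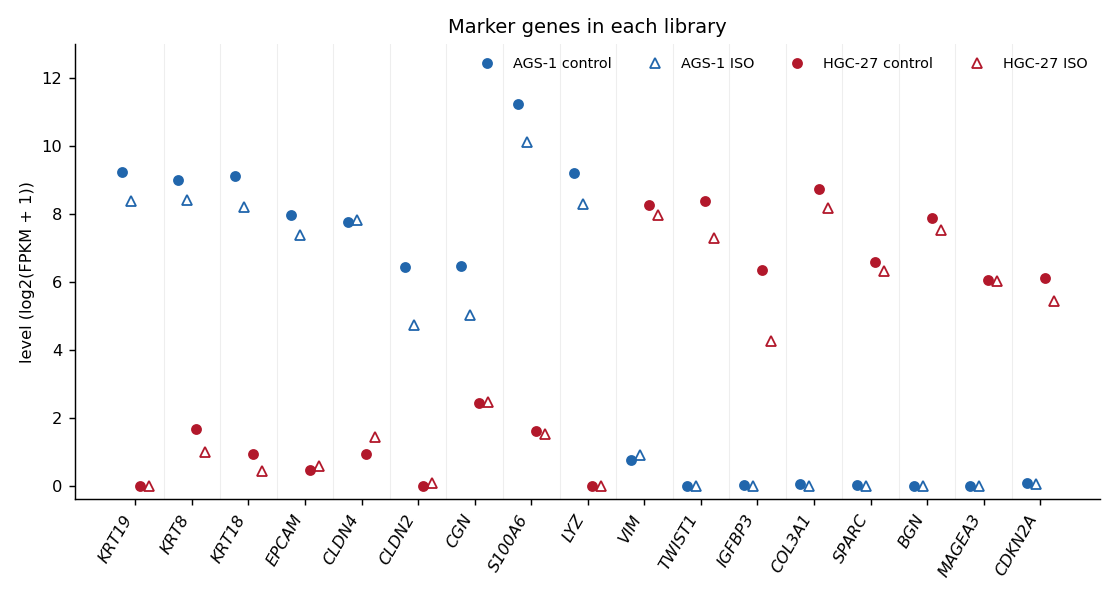
Levels of 17 marker genes (log2(FPKM + 1), y axis) in each of the 4 libraries, AGS-1 in blue and HGC-27 in red, filled circles for control and open triangles for ISO, 1 library per point. KRT19 to LYZ are high in both AGS-1 libraries and VIM to CDKN2A in both HGC-27 libraries, and no gene overlaps between the lines.

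The mesenchymal genes lay on the other side. VIM read 0.697 and 0.860 FPKM in AGS-1 and 306 and 249 FPKM in HGC-27. TWIST1, a basic helix-loop-helix factor that represses epithelial genes, read 0 and 0 FPKM in AGS-1 and 334 and 155 FPKM in HGC-27, and IGFBP3, a binder of insulin-like growth factors, read 0.0144 and 0 FPKM in AGS-1 and 79.8 and 18 FPKM in HGC-27. All 3 were high in both HGC-27 libraries, and AGS-1 held 0 fragments of TWIST1 and under 1 FPKM of the others. The log2 difference of VIM was -7.28 with a standard error of 0.19 (limma, adjusted p = 9.36e-12), and TWIST1 was at least 2536-fold higher in HGC-27. Of 35 mesenchymal genes 12 were tested, of which 9 were called higher in HGC-27, 1 was called higher in AGS-1 and 2 were not called (median -4.24). The 9 make 75%, against 24.7% of all genes. Members such as TWIST1, POSTN, VIM, SPARC, IGFBP3 and TPM2 were at 0 or under 1 FPKM in AGS-1. They passed the filter of a mean of 1 FPKM only through HGC-27, so their direction was fixed in advance and the share describes the listed genes only. SPARC, a collagen-binding matrix protein, and POSTN (periostin) were among the 9, at 0.0141 and 0 FPKM in AGS-1 and 94.2 and 79.6 FPKM in HGC-27 for SPARC and 0 and 0 FPKM in AGS-1 and 93.1 and 34.4 FPKM in HGC-27 for POSTN. The gene higher in AGS-1 was CALD1 (caldesmon), at 39.9 and 20.5 FPKM in AGS-1 and 17.2 and 10.8 FPKM in HGC-27, and NES (nestin) was not called, at 46.7 and 32.9 FPKM in AGS-1 and 24.7 and 31.7 FPKM in HGC-27. LGALS1 (galectin-1), though on the mesenchymal list and higher in HGC-27, was abundant in both lines at 343 and 178 FPKM in AGS-1 and 549 and 439 FPKM in HGC-27.

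Matrix genes stood on both sides. Of 27 tested, 13 were called higher in AGS-1 (48.15%) and 10 higher in HGC-27 (37.0%), with a median of 0.45. Over all genes the shares were 32.2% and 24.7%. The laminin chains of the epithelial basement membrane stood on the AGS-1 side, led by LAMB3 at 323 and 135 FPKM in AGS-1 and 0.639 and 0.492 FPKM in HGC-27. The fibrillar collagens in the table (COL1A1, COL3A1, COL5A1 and COL5A2) stood on the HGC-27 side. COL3A1 read 0.0389 and 0 FPKM in AGS-1 and 427 and 289 FPKM in HGC-27, and COL1A1 read 9.71 and 6.83 FPKM in AGS-1 and 348 and 313 FPKM in HGC-27. COL6A2, a chain of the filament-forming collagen VI, read 0 and 0 FPKM in AGS-1 and 50.8 and 46.6 FPKM in HGC-27. COL3A1 had the largest difference of any protein-coding gene on the HGC-27 side on this scale (-8.43; limma, adjusted p = 6.93e-12). COL1A1 was not absent from AGS-1, and COL6A1 was present in both lines at 38 and 33.7 FPKM in AGS-1 and 67.2 and 59.4 FPKM in HGC-27, in contrast to COL6A2, whose product joins it in the same collagen. Integrins followed the laminins, with 6 of 7 called higher in AGS-1 (85.7%). ITGB4, the laminin-binding subunit of hemidesmosomes, read 237 and 108 FPKM in AGS-1 and 0.505 and 0.269 FPKM in HGC-27, and ITGA5, of the fibronectin receptor, was the member higher in HGC-27, at 37.5 and 26.7 FPKM in AGS-1 and 68.1 and 46.1 FPKM in HGC-27.

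Cytoskeleton genes differed in both directions. Of 33 actin and myosin genes, 18 were called higher in AGS-1, 3 higher in HGC-27 and 12 were not called, and without the AGS-1 control library 11 were higher in AGS-1. Over all 4 libraries the shares higher in AGS-1 and in HGC-27 were 54.55% and 9.09%, against 32.2% and 24.7% of all genes. The 3 higher in HGC-27 were PFN2, FSCN1 and TPM2. PFN2, a second profilin, read 0 and 0 FPKM in AGS-1 and 39.5 and 25.7 FPKM in HGC-27, while the common profilin PFN1 read 366 and 213 FPKM in AGS-1 and 198 and 143 FPKM in HGC-27. FSCN1 (fascin), which bundles actin in filopodia, read 7.95 and 2.71 FPKM in AGS-1 and 190.0 and 195 FPKM in HGC-27, and EZR (ezrin), which ties actin to microvilli, read 456 and 225 FPKM in AGS-1 and 39.5 and 30.4 FPKM in HGC-27. Fascin was therefore high in HGC-27 and ezrin in AGS-1, with no overlap. Of 5 tubulins, 3 were called, all higher in HGC-27 (60%, against 24.7% of all genes). They were led by TUBA1A at 2.87 and 2.70 FPKM in AGS-1 and 56 and 60.7 FPKM in HGC-27. Actin and tubulin genes have close copies that can share fragments.

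**Figure D3:**
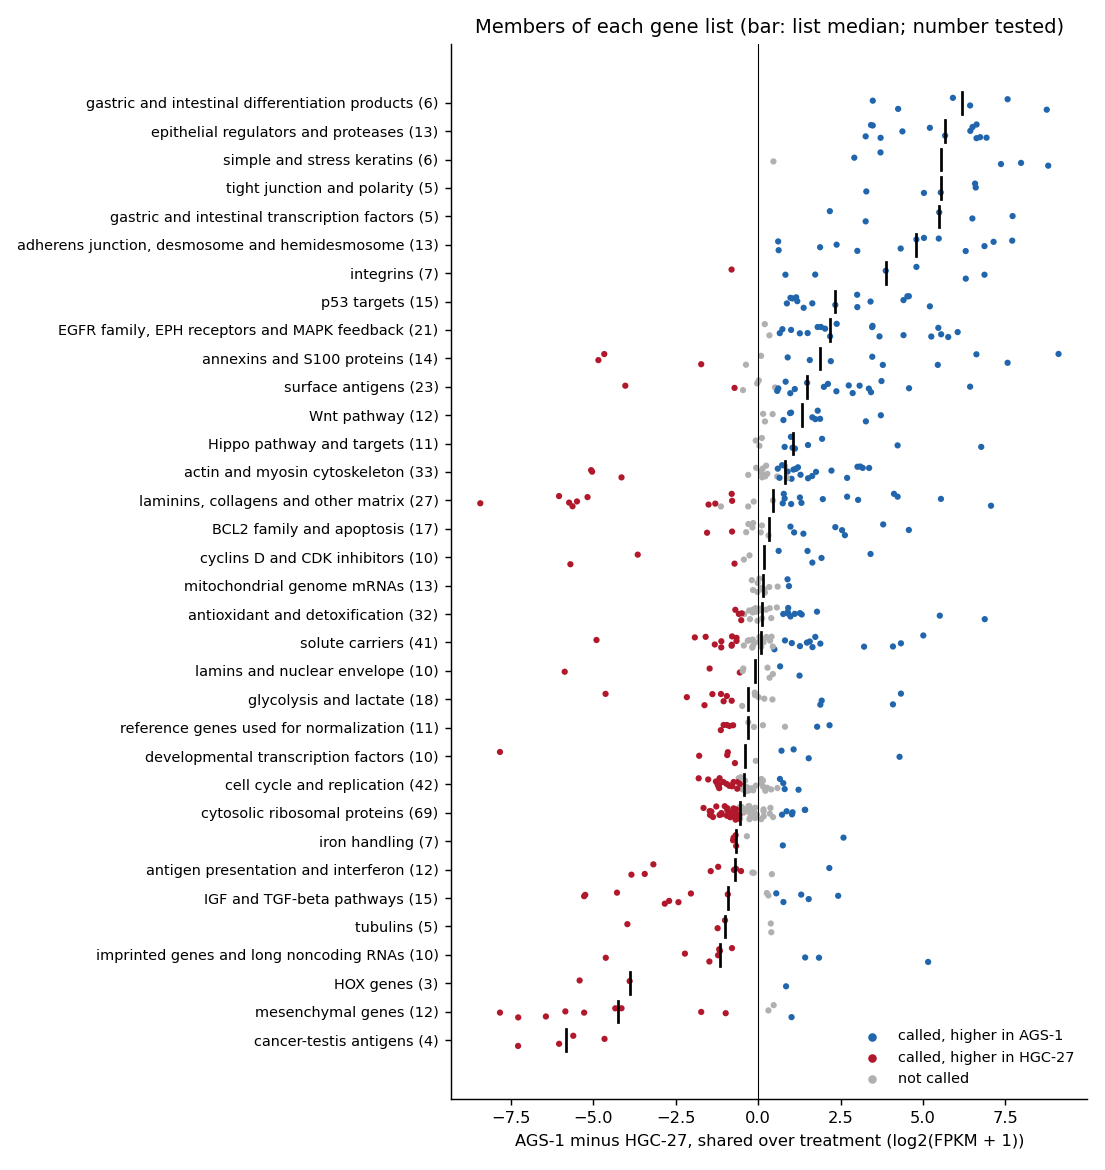
Difference between the lines (AGS-1 minus HGC-27, log2(FPKM + 1), shared over treatment, x axis) for each tested member of each gene list with 3 or more members tested (y axis, number tested in brackets); points are genes coloured by limma call and black bars are list medians. Epithelial and gastric lists lie at the top with medians of 4.80 to 6.17, and mesenchymal genes and cancer-testis antigens at the bottom with medians of -4.24 and -5.83.

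Markers of stomach and gut were checked because both lines are labelled gastric. Of 26 transcription factors written for these tissues the table held 5, and these were called higher in AGS-1. SOX9, a factor of gut progenitors, read 274 and 138 FPKM in AGS-1 and 1.37 and 0.969 FPKM in HGC-27, and FOXA3, a foregut forkhead factor, read 66.7 and 32.9 FPKM in AGS-1 and 0.0699 and 0.0551 FPKM in HGC-27. KLF4, which acts in differentiating gut epithelium, read 49.3 and 41.8 FPKM in AGS-1 and 10.2 and 8.40 FPKM in HGC-27, and with KLF5 was a member that HGC-27 kept. Of 42 differentiation products 6 were tested, and these were called higher in AGS-1. LYZ, CDH17 and TSPAN8 had 0 fragments in both HGC-27 libraries and passed the filter only through AGS-1, so their direction was fixed in advance. The fitted median of the 6 was 6.17, or 8.96 with the genes at 0 fragments at the bound that 3 fragments set. LYZ, the lysozyme of gastric glands, read 594 and 314 FPKM in AGS-1 and 0 and 0 FPKM in HGC-27, at least 4828-fold higher in AGS-1. CDH17, the liver-intestine cadherin, read 78.7 and 44.3 FPKM in AGS-1 and 0 and 0 FPKM in HGC-27. HGC-27 thus showed none of these 3 gastrointestinal products at this depth. Other products on the list, such as mucins beyond MUC1 and MUC13, are outside the table and were not analysed here.

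Among the 12 largest protein-coding differences toward AGS-1 were also secreted and calcium-binding proteins. S100A6, a calcium-binding protein, had the largest difference on the log2(FPKM + 1) scale, which shrinks genes at 0 such as KRT19 and LYZ (9.12; limma, adjusted p = 1.88e-11), with 2412 and 1111 FPKM in AGS-1 and 2.04 and 1.87 FPKM in HGC-27. PLA2G2A, a secreted phospholipase, read 563 and 363 FPKM in AGS-1 and 0 and 0 FPKM in HGC-27; CST1, a secreted cysteine protease inhibitor, read 292 and 247 FPKM in AGS-1 and 0 and 0 FPKM in HGC-27; and CTSE read 314 and 224 FPKM in AGS-1 and 0 and 0 FPKM in HGC-27. All 3 had 0 fragments in HGC-27. TNS4, a focal adhesion tensin, FOXQ1, a forkhead factor, and S100P were also in the set, as were KRT19, KRT18, KRT8 and LYZ. Of 14 annexin and S100 genes, 9 were called higher in AGS-1 (64.3%, against 32.2% of all genes) and 3 higher in HGC-27 (21.4%, near 24.7%). The 3 were ANXA5, ANXA6 and S100A4. S100A4, a neighbour of S100A6 on chromosome 1 that is linked to motility, read 35.5 and 7.29 FPKM in AGS-1 and 71.3 and 44.9 FPKM in HGC-27, with the AGS-1 control library close to the HGC-27 ISO library.

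Toward HGC-27, the 12 largest held matrix genes (COL3A1, BGN, MFAP4 and SPARC), TWIST1 and VIM, and a set of other kinds. BGN read 0 and 0 FPKM in AGS-1 and 232 and 183 FPKM in HGC-27. ASS1, which makes argininosuccinate on the way to arginine, read 1.87 and 0.374 FPKM in AGS-1 and 199 and 149 FPKM in HGC-27, and QPRT, of the NAD synthesis route from tryptophan, read 0.107 and 0.0341 FPKM in AGS-1 and 96.5 and 79.3 FPKM in HGC-27. Both metabolic enzymes were near 0 in AGS-1, as was PHGDH, the first enzyme of serine synthesis, at 0.0786 and 0.0205 FPKM in AGS-1 and 78.3 and 84.3 FPKM in HGC-27. EEF1A2, an elongation factor normally of muscle and neurons, read 0 and 0.0130 FPKM in AGS-1 and 103 and 67.4 FPKM in HGC-27. The others were EFHD1, ITM2C and CTAG2.

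Cancer-testis antigens are genes of the male germ line that some tumours switch on. All 4 tested were called higher in HGC-27 (against 24.7% of all genes) and had 0 fragments in AGS-1. These genes passed the filter only through their HGC-27 levels, so the direction of the calls was fixed in advance. Their fitted median was -5.83, or -9.04 with each gene at the bound that 3 fragments set. CTAG2 read 0 and 0 FPKM in AGS-1 and 178 and 135 FPKM in HGC-27, MAGEA3 0 and 0 FPKM in AGS-1 and 66.1 and 63.7 FPKM in HGC-27, MAGEA6 0 and 0 FPKM in AGS-1 and 48.4 and 47.4 FPKM in HGC-27 and MAGEA1 0 and 0 FPKM in AGS-1 and 22.8 and 25.9 FPKM in HGC-27, and MAGEA3 and MAGEA6 are near copies whose fragments can be assigned to either. The paternally expressed gene PEG10 also had 0 fragments in AGS-1, at 0 and 0 FPKM in AGS-1 and 28 and 20 FPKM in HGC-27. GNAS, which encodes the stimulatory G protein alpha subunit, went the other way at 63.6 and 39.4 FPKM in AGS-1 and 0.434 and 0.427 FPKM in HGC-27, in a locus with overlapping transcripts whose reads may be divided. Of 3 HOX genes, HOXA13 and HOXC10 were called higher in HGC-27, with HOXA13 at 0 and 0 FPKM in AGS-1 and 44.8 and 38.9 FPKM in HGC-27, and HOXB9 higher in AGS-1 with both lines expressing it, at 67.3 and 33.1 FPKM in AGS-1 and 34.4 and 19.3 FPKM in HGC-27.

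Growth signalling genes leaned toward AGS-1. Of all genes, 32.2% were called higher in AGS-1. The share was 90.5% on the EGFR, EPH and MAPK list, 75% on the Wnt list and 72.7% on the Hippo list. Of 21 genes of the EGFR family, EPH receptors and MAPK feedback, 19 were called higher in AGS-1, none was called higher in HGC-27 and 2 were not called (median 2.18). EGFR read 43 and 11.1 FPKM in AGS-1 and 0.974 and 1.20 FPKM in HGC-27, and the related receptors MST1R and EPHA2 read 61.4 and 33.2 FPKM in AGS-1 and 0.198 and 0.223 FPKM in HGC-27 for MST1R and 532 and 212 FPKM in AGS-1 and 21.7 and 10 FPKM in HGC-27 for EPHA2. DUSP6, a phosphatase that MAPK signalling induces against itself, read 91.1 and 41.8 FPKM in AGS-1 and 0.372 and 0.304 FPKM in HGC-27, and FOSL1, an AP-1 subunit downstream of the same pathway, read 89.6 and 55.4 FPKM in AGS-1 and 0.315 and 0.310 FPKM in HGC-27. Each of these receptors, the phosphatase and FOSL1 were thus higher in both AGS-1 libraries than in either HGC-27 library. JUND and NRAS were the members not called. Of 12 Wnt pathway genes, 9 were called higher in AGS-1, among them the targets AXIN2 at 98.8 and 48.4 FPKM in AGS-1 and 29.1 and 13.7 FPKM in HGC-27 and SP5 at 104 and 50.7 FPKM in AGS-1 and 6.66 and 3.08 FPKM in HGC-27, while MYC was not called at 99.3 and 50.3 FPKM in AGS-1 and 71.7 and 56.6 FPKM in HGC-27. Of 11 Hippo pathway genes, 8 were called higher in AGS-1; the targets ANKRD1 and CCN2 differed by 6.77 and 4.23, and the coactivator YAP1 by 1.51. The IGF and TGF-beta list split, with 5 of 15 higher in AGS-1 (33.3%, near the 32.2% of all genes). On this list 8 were higher in HGC-27 (53.3%, against 24.7%), where IGFBP7, IGFBP4 and IGFBP2 joined IGFBP3. IGFBP6 went the other way, at 82.8 and 40.1 FPKM in AGS-1 and 28.1 and 18.3 FPKM in HGC-27. Without the AGS-1 control library the numbers higher in AGS-1 were 5 for Wnt, 3 for Hippo and 2 for IGF and TGF-beta genes. IGFBP4 read 46.6 and 21.3 FPKM in AGS-1 and 255 and 175 FPKM in HGC-27.

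Of 35 p53 target genes 15 were listed, and these were called higher in AGS-1 (100%, against 32.2% of all genes), with a median difference of 2.34. Of these, BAX and BBC3 lie on chromosome 19 beyond 40 Mb, where 88.4% of protein-coding genes were called higher in AGS-1. CDKN1A (p21), the cell cycle inhibitor that p53 induces, read 196 and 179 FPKM in AGS-1 and 16.2 and 17.3 FPKM in HGC-27. The proapoptotic BBC3 (PUMA) read 108 and 75.9 FPKM in AGS-1 and 3 and 2.69 FPKM in HGC-27, and GDF15, a stress cytokine, read 1419.9 and 1226 FPKM in AGS-1 and 71.1 and 44.5 FPKM in HGC-27. Each was several-fold higher in AGS-1 without and with ISO, and some members of the list (EPHA2, SFN and PERP) also belong to the epithelial or receptor lists above. The inhibitors of the cell cycle showed another contrast. CDKN2A, the locus of p16 and p14ARF, read 0.0676 and 0.0323 FPKM in AGS-1 and 68.1 and 42 FPKM in HGC-27, and CDKN2C (p18) read 0.848 and 2.28 FPKM in AGS-1 and 28.6 and 31.5 FPKM in HGC-27, while CDKN2B (p15) read 55.7 and 49 FPKM in AGS-1 and 17.5 and 9.68 FPKM in HGC-27. AGS-1 was thus close to 0 for CDKN2A and higher than HGC-27 for its neighbour CDKN2B. CCND1 (cyclin D1) read 289 and 102 FPKM in AGS-1 and 54.4 and 54.1 FPKM in HGC-27, so that the AGS-1 ISO library lay between its control library and HGC-27.

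Proliferation genes leaned the other way, by less. On the cell cycle list 9.52% were called higher in AGS-1 and 42.9% higher in HGC-27, against 32.2% and 24.7% of all genes. These shares were 47.1% and 11.8% on the BCL2 and apoptosis list and 8.33% and 66.7% on the interferon list. Of 42 genes of the cell cycle and replication, 18 were called higher in HGC-27 (against 24.7% of all genes) and 4 higher in AGS-1, with a median of -0.44, and without the AGS-1 control library these counts were 15 and 0. The helicase subunits MCM2 to MCM7 that license replication were all called higher in HGC-27, with MCM7 at 45.9 and 36.9 FPKM in AGS-1 and 163 and 132 FPKM in HGC-27, whereas MKI67 was not called at 20.2 and 24.2 FPKM in AGS-1 and 23.3 and 26.1 FPKM in HGC-27. Of 17 genes of the BCL2 family and apoptosis, 8 were called higher in AGS-1, including BCL2L1 (BCL-XL) at 197 and 78.1 FPKM in AGS-1 and 9.33 and 6.89 FPKM in HGC-27 and BAX at 143 and 103 FPKM in AGS-1 and 20.7 and 25.8 FPKM in HGC-27, and 2 higher in HGC-27, one of them CYCS (cytochrome c) at 16.5 and 15.6 FPKM in AGS-1 and 50.7 and 47.4 FPKM in HGC-27. Interferon and antigen presentation genes were called higher in HGC-27 in 8 of 12 cases (median -0.70), led by BST2 (tetherin) at 55.8 and 26.3 FPKM in AGS-1 and 577 and 316 FPKM in HGC-27, and IRF3 was the member higher in AGS-1 at 75.9 and 52.5 FPKM in AGS-1 and 12.7 and 14.1 FPKM in HGC-27.

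In metabolism the steps of a route differed. Of the glycolysis genes 44.4% were called higher in HGC-27 and 22.2% higher in AGS-1, against 24.7% and 32.2% of all genes. SLC2A1, the glucose importer GLUT1, read 545 and 224 FPKM in AGS-1 and 18.5 and 20.7 FPKM in HGC-27, and SLC16A3, the lactate exporter MCT4, read 69.5 and 26.1 FPKM in AGS-1 and 1.25 and 1.09 FPKM in HGC-27, both higher in AGS-1. Most enzymes between them had higher or similar values in HGC-27: of 18 glycolysis genes, 8 were called higher in HGC-27, among them PGAM1 at 114 and 100.5 FPKM in AGS-1 and 385 and 288 FPKM in HGC-27 and ENO1 at 334 and 243 FPKM in AGS-1 and 699 and 558 FPKM in HGC-27, and 4 were called higher in AGS-1, namely both these transporters, the glucose importer SLC2A3 and PGM1, which links glycogen to glycolysis. PKM was not called, at 202 and 157 FPKM in AGS-1 and 204 and 179.7 FPKM in HGC-27. Of 32 antioxidant and detoxification genes, 11 were called higher in AGS-1 (34.4%, near the 32.2% of all genes), 4 higher in HGC-27 and 17 were not called, and without the AGS-1 control library the counts were 6 and 0; GPX2, the gut glutathione peroxidase, stood out at 131 and 123 FPKM in AGS-1 and 0.0991 and 0.0782 FPKM in HGC-27, and NQO1 read 179.7 and 152 FPKM in AGS-1 and 64.3 and 66.7 FPKM in HGC-27. FTL, ferritin light chain, had the highest mean level of any nuclear protein-coding gene in AGS-1 at 3996 and 4008 FPKM in AGS-1 and 651 and 678 FPKM in HGC-27, while its partner FTH1 was called higher in HGC-27 at 182 and 327 FPKM in AGS-1 and 381 and 442 FPKM in HGC-27. For 41 solute carriers the counts higher in AGS-1 and in HGC-27 were 13 (31.7%) and 11 (26.8%), near the 32.2% and 24.7% of all genes. For 23 surface antigens they were 17 (73.9%) and 2 (8.70%).

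Some neighbouring genes differed in the same direction, a description chosen after the values were seen. On chromosome 8, the 16 consecutive tested genes from RAD21 to NSMCE2 (chr8:116845934-125367120, GRCh38, coordinates as deposited) held 15 called higher in HGC-27, with a median of -3.14, against 11 of the 58 other genes tested on that chromosome (18.97%). ATAD2, a chromatin ATPase, read 13 and 9.34 FPKM in AGS-1 and 218 and 179.9 FPKM in HGC-27, NDUFB9, a subunit of respiratory complex I, read 3.59 and 2.74 FPKM in AGS-1 and 69.3 and 67.7 FPKM in HGC-27, and NSMCE2, a SUMO ligase, read 3.25 and 3.96 FPKM in AGS-1 and 95.4 and 71.5 FPKM in HGC-27. All 15 were higher in both HGC-27 libraries. The exception within the block was MAL2, which is epithelial and read 116 and 74.9 FPKM in AGS-1 and 0.0576 and 0.0170 FPKM in HGC-27. Next to the block, EIF3H on the near side was higher in AGS-1 by 0.47, and TRIB1 and MYC on the far side were not called, with TRIB1 at 47.6 and 36.4 FPKM in AGS-1 and 38.4 and 40.9 FPKM in HGC-27.

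Chromosome 19 changed direction along its length. Of 150 protein-coding genes starting before 20 Mb, 91 (60.7%) were called higher in HGC-27 and 17 higher in AGS-1, with a median of -0.72. Of 86 starting beyond 40 Mb, 76 (88.4%) were called higher in AGS-1 and 2 higher in HGC-27, with a median of 1.42. The longest run of neighbours called the same way in the table, 26 genes from SYMPK to FTL, lay there, and BAX, BBC3, FTL and FOXA3 are in this segment. On chromosome 20, 78 of 119 protein-coding genes (65.6%) were called higher in AGS-1 and 5 higher in HGC-27 (median 0.72), and on chromosome 7, 62 of 141 (44.0%) were called higher in HGC-27 and 21 higher in AGS-1 (median -0.34). These 2 chromosomes were picked as those with the highest and the lowest median. Over all protein-coding genes tested, 32.7% were called higher in AGS-1 and 24.5% higher in HGC-27.

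**Figure D4:**
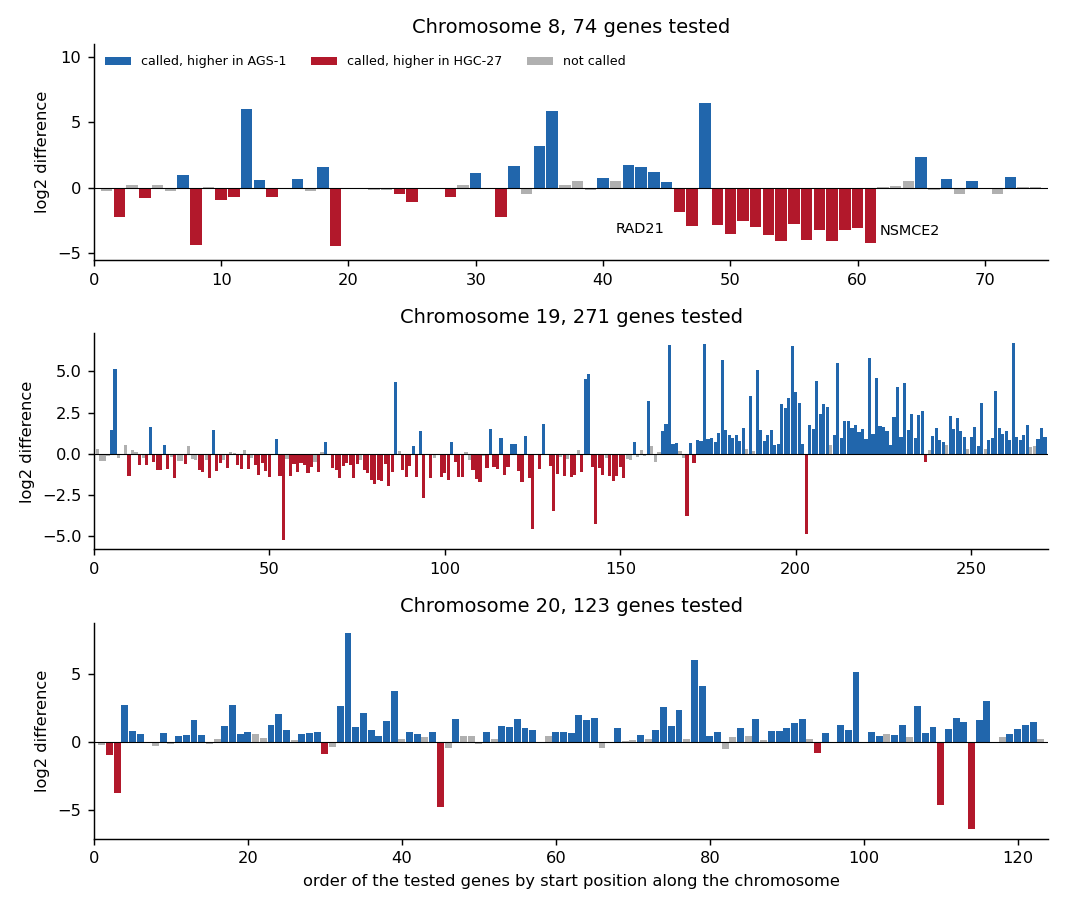
Difference between the lines (AGS-1 minus HGC-27, log2(FPKM + 1), y axis) of every gene tested on chromosomes 8, 19 and 20, as bars in the order of their start positions (x axis), coloured by limma call. The block from RAD21 to NSMCE2 on chromosome 8 points down in 15 of 16 genes, chromosome 19 turns from mostly lower to mostly higher in AGS-1, and chromosome 20 is mostly higher in AGS-1.

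Ribosomal protein genes differed by position in the same way on chromosome 19. Wherever they lie, 40.6% were called higher in HGC-27 and 8.70% higher in AGS-1, against 24.7% and 32.2% of all genes. Of 69 tested, 28 were called higher in HGC-27, 6 higher in AGS-1 and 35 were not called (median -0.55), and without the AGS-1 control library 32 and 2 were called. All 6 that were higher in AGS-1 lie on chromosome 19 beyond 20 Mb, among them RPS16, RPS19, RPL18, RPL13A and RPL28. All 5 on chromosome 19 before 20 Mb, among them RPS15, RPL36 and RPS28, were called higher in HGC-27, and of the 57 on other chromosomes 23 were called higher in HGC-27 and none higher in AGS-1. RPS19 read 636 and 397 FPKM in AGS-1 and 199.7 and 174 FPKM in HGC-27 and RPS15 read 246 and 169 FPKM in AGS-1 and 419 and 365 FPKM in HGC-27, so that mRNAs for proteins of the same ribosome differed in opposite directions between the lines. Ribosomal genes have many processed copies, and the authors' counting can divide fragments among them.

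Promoter windows were matched for 2233 of 2699 protein-coding genes tested. The median window held 28 CG dinucleotides over all of these genes, 27 in the genes 2-fold higher in AGS-1 and 25 in those 2-fold higher in HGC-27. Windows with fewer than 10 CG made up 14.25% and 8.91% of these 2-fold sets, against 6.58% over all tested. For the genes at least 16-fold higher in AGS-1 the median was 21, and 33.0% of the 88 windows held fewer than 10 CG, as CLDN2 and CTSE do, against 6.58% over all tested, 44.03% over the 27305 windows of the whole RefSeq table and 13.7% of the 51 windows of genes at least 16-fold higher in HGC-27. Among the genes of 1 line only, the median was 7 over 9 windows for AGS-1, 5 of them under 10 CG, and 30.5 over 20 windows for HGC-27, 3 of them under 10 CG. CG-poor windows were thus more frequent in the AGS-1 sets than among the genes tested, and by less in the HGC-27 sets. Only the 9 windows of genes of AGS-1 alone exceeded the share in the RefSeq table, and no test was made.

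Motif letters were searched in the same windows on both strands and scored as present or absent. CAGGTG, the E-box form that Snail and ZEB repressors are known to bind, was present in 16.1% of windows over all tested genes and in 20.6% of the 27305 windows of the whole RefSeq table. It was present in 24.9% of windows for genes 2-fold higher in AGS-1, in 35.2% for those at least 16-fold higher in AGS-1, in 15.3% for those 2-fold higher in HGC-27 and in 13.7% for those at least 16-fold higher in HGC-27. TGANTCA, with any base in the middle, is looser than the AP-1 site, which has C or G there. It stood in 4.43% of all tested, in 7.67% for AGS-1 and in 2.48% for HGC-27 at 2-fold. At 16-fold, however, the shares were 13.6% for AGS-1 and 7.84% for HGC-27, the latter 4 of 51 windows. The match in the CLDN2 run shown above reads TGATTCA, with T in the middle. GGAATG, the TEAD site, was found in 9.90%, 13.2% and 11.4%, and TATAAA in 6.09%, 6.85% and 6.93%, of the same 3 sets. At 16-fold GGAATG stood in 18.2% for AGS-1 and 5.88% for HGC-27, and TATAAA in 9.09% and 9.80%. In the whole RefSeq table the shares were 7.76% for TGANTCA, 14.05% for GGAATG and 11.95% for TATAAA. A match of letters is not a bound site, and the sets differ in base composition.

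**Figure D5:**
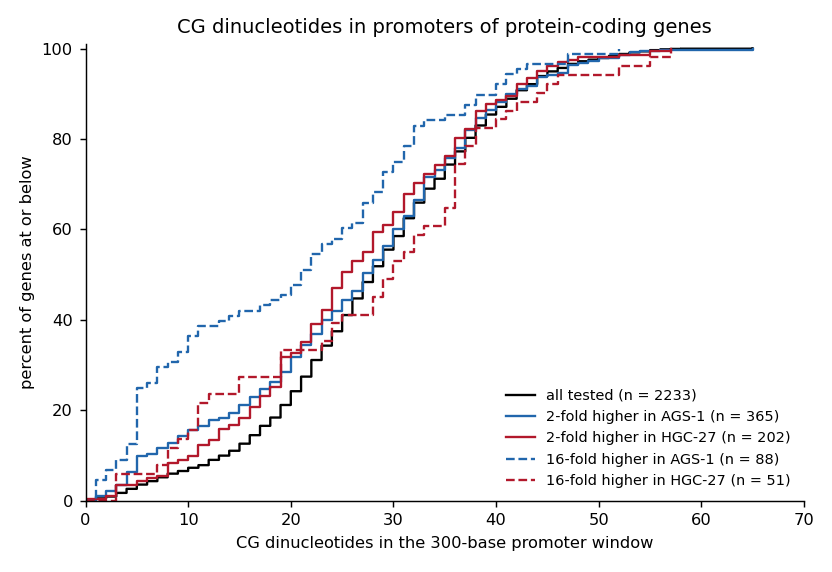
Cumulative percent of genes (y axis) by the number of CG dinucleotides in the 300-base promoter window (x axis), for all tested protein-coding genes with a window and for genes higher in 1 line by at least 2-fold in both pairs or by 16-fold in the shared fit. The dashed blue line, the 88 genes 16-fold higher in AGS-1, rises earliest, with 33.0% of its genes under 10 CG.

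Most of the large differences were present with and without ISO, and their size with ISO depended on scaling. Within the control pair 694 genes were at least 2-fold higher in AGS-1, with 365 higher in HGC-27, and within the ISO pair the counts were 494 and 383. For the 473 genes 2-fold higher in AGS-1 in both, the median difference was 2.51 in the control pair and 2.04 in the ISO pair, and it was smaller with ISO for 395 of them. For the 288 genes on the HGC-27 side the medians were -1.74 and -1.74. Under upper-quartile scaling the medians became 2.15 and 1.97 for the AGS-1 side, smaller with ISO for 298 genes, and -2.08 and -1.84 for the HGC-27 side, smaller in size with ISO for 218 genes. Under median-of-ratios scaling they were 2.33 and 2.07, and -1.91 and -1.73. The narrowing on the AGS-1 side was thus less under other scalings, and the HGC-27 side then narrowed too. The 473 genes took 23.8% of the AGS-1 control library and 15.1% of the AGS-1 ISO library, against 3.39% and 3.07% of the HGC-27 libraries. In AGS-1, 89.2% of them were lower in the ISO library than in the control library, as were 78.8% of all genes tested, and the share of the library taken by the listed genes fell at the same time; each treatment has 1 library per line, so this narrowing has no replicate check. Single markers narrowed more. IGFBP3 in HGC-27 went from 79.8 to 18.0 FPKM and CLDN2 in AGS-1 from 86.0 to 25.7 FPKM, and both stayed clear of the other line. Only 1 gene was at least 2-fold apart in opposite directions in the 2 pairs, an unannotated transcript without a gene name, at 39.2 and 16.4 FPKM in AGS-1 and 9.97 and 35.9 FPKM in HGC-27.

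Some abundant genes differed little between the lines. With at least 100 FPKM in each line, the 5 smallest differences were those of EIF1, SLC3A2, GANAB, MRPL41 and ILF2, and the translation factor EIF1 read 251 and 176 FPKM in AGS-1 and 209 and 211 FPKM in HGC-27. Of 11 genes often used as references, 5 were called higher in HGC-27 (45.45%) and 2 higher in AGS-1 (18.2%), against 24.7% and 32.2% of all genes. GAPDH read 596 and 536 FPKM in AGS-1 and 1211 and 1131 FPKM in HGC-27, whereas RPLP0 was not called at 446 and 354 FPKM in AGS-1 and 463 and 407 FPKM in HGC-27. Of 13 mitochondrial mRNAs, MT-ND6 and MT-ATP8 were called, both higher in AGS-1, and neither without the AGS-1 control library. Among nuclear protein-coding genes the highest mean levels in AGS-1 after FTL were TMSB10, S100A6, S100A11 and GDF15, and in HGC-27 they were RPS2, EEF2, GAPDH, RPL41 and TMSB10, so that only TMSB10, an actin-binding thymosin, stood in both.

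Markers of other cell types were checked in the same table. Of 94 such genes on 7 lists, 12 were listed. Immune markers were represented by LYZ alone of 17, hepatocyte markers by FGA and VTN of 14, fibroblast markers by COL1A1 and COL3A1 of 12, endothelial markers by ENG, EGFL7 and ESAM of 13, neural markers by NES and ENO2 of 16, muscle markers by TNNT1 and CKB of 13, and no erythroid marker of 9 was listed. CKB, the brain creatine kinase, read 12.8 and 10.7 FPKM in AGS-1 and 352 and 274 FPKM in HGC-27. FGA (fibrinogen alpha) read 70.9 and 43.3 FPKM in AGS-1 and 0 and 0 FPKM in HGC-27 and VTN (vitronectin) 333 and 126 FPKM in AGS-1 and 0.208 and 0.308 FPKM in HGC-27, both secreted liver proteins at or near 0 in HGC-27, and EGFL7 read 0.0256 and 0 FPKM in AGS-1 and 39.2 and 35 FPKM in HGC-27. The summed level of the 2 fibroblast markers was 9.75 and 6.83 FPKM in AGS-1 and 776 and 602 FPKM in HGC-27. Their part in the results was not tested, and the defining markers of other types that the table does not list were not analysed here.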

How the data were processed

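The authors deposited 1 column of mRNA values for each line and treatment, treated here as 1 library each; the study's text speaks of duplicates, and whether a column pools them is not given in the sources used here. The submitters' processing notes name CASAVA 1.8, HISAT2 and GRCh38 (hg38); the counting tool, the annotation and the choice of the listed genes are not given in the sources used here. The deposited values are FPKM per gene, computed by the authors. FPKM multiplied by gene length came out as whole fragments (tolerance 0.02) for 100% of values, which gave the fragment counts behind the floor of 3. From these values, limma 3.58.1 (R 4.3.3, with a mean-variance trend) was run on log2(FPKM + 1) for the 2883 genes averaging 1 FPKM or more over the libraries, with line and treatment as terms and Benjamini-Hochberg adjustment over all of them, which leaves 1 residual degree of freedom and a prior of 11.5. In simulated data with 200 of 2883 genes changed, 81.8% of 2-fold changes were recovered and 6.88% of calls were false. At a log2 change of 2 the false share was 8.60%. The simulation took independent libraries and few changed genes, unlike these data with 1639 calls, so its false shares do not carry over. Genes were named by rule: the markers, members of gene lists, the 12 largest protein-coding differences each way, the 5 highest levels per line and the 5 smallest differences at 100 FPKM or more; PHGDH, the unannotated transcript and genes named by chromosome position were picked with their values in view, and some genes are not reported here. The members and lists were chosen with earlier results of these data known. Alternatives varied the pseudocount, filter, scaling, pseudogenes, treatment term, trend and libraries. Python 3 and matplotlib drew the figures.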

Additional observations from a re-analysis of the deposited data

Results flagged for a closer look

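In several genes and lists the line difference had opposite signs in the control pair and in the ISO pair; with 1 library per group none of these differences was tested. An unannotated transcript without a gene name had a difference of 1.87 in the control pair and -1.08 in the ISO pair, which is 2.95 apart. The pairs were 1.38 apart for KRT7, which was under 10 FPKM in all 4 libraries. They were 0.63 apart for MYC and 0.47 for TRIB1. The 5 genes with the smallest differences were 0.52 (EIF1), 0.68 (SLC3A2), 0.12 (GANAB), 0.70 (MRPL41) and 0.26 (ILF2) apart, as differences near 0 can change sign readily. The median over lamins and nuclear envelope genes was 0.24 higher in the control pair, and that over mitochondrial mRNAs was lower in the control pair by 0.34 (a change of -0.34).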

How the results depend on the processing

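Among 162 genes named here 146 were called, of which 111 stayed called under every alternative, and no call between the lines changed direction under any alternative. Leaving out a library changed the number of genes called from 1639 to between 607 and 1252 (fitted without treatment as a term, so a lone library is assumed to vary like the other line). The count higher in AGS-1 then ranged from 381 to 836, that higher in HGC-27 from 218 to 528, and the number of called list members from 188 to 303, the low ends coming without an HGC-27 library, with fewer samples in the fit. Without treatment as a term 1182 genes were called. The medians of 4 lists near 0 changed sign under another scaling. Genes that were not called changed sign as follows. Under upper-quartile scaling the difference was -0.029 for JUND, -0.080 for MYC, -0.16 for TRIB1, -0.21 for SLC3A2, -0.21 for GANAB and -0.20 for ILF2. Under median-of-ratios scaling it was -0.014 for TRIB1, -0.068 for SLC3A2, -0.065 for GANAB and -0.053 for ILF2. With each library left out in turn it ranged from -0.39 to 1.32 for KRT7, -0.33 to 0.63 for MYC, -0.29 to 0.078 for PKM, -0.12 to 0.26 for TRIB1, -0.48 to 1.27 for the unannotated transcript, -0.26 to 0.25 for EIF1, -0.38 to 0.42 for SLC3A2, -0.053 to 0.096 for GANAB, -0.30 to 0.25 for MRPL41, -0.12 to 0.19 for ILF2 and -0.29 to 0.038 for RPLP0; KRT7 was called without the AGS-1 ISO library. The cause was not tested. The fit pairs the libraries by treatment, and the count of 1182 is that without this pairing; no pairing by replicate number was made, with 1 library per group. Depth limits genes at 0, where 3 fragments per library is the floor, and fitted differences of such genes are no bound.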
